A study of Mus musculus with 4 samples.

Results

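The cell cycle and DNA replication genes of the mouse ventricle were followed in mice given deoxycorticosterone acetate with high or low salt. Members were chosen by symbol alone: the clones whose single gene symbol names a cyclin A, B or E, a cyclin-dependent kinase or its inhibitor, a Cdc protein other than Cdc42 and Cdc37 relatives, an aurora, Bub or polo-like kinase, a centromere, Smc or Orc protein, a replicative helicase, polymerase, clamp or clamp-loader subunit, Rrm1, Rrm2, Top2a, Tk1 or Tacc3. The rule matched 177 clones of 107 genes, and 106 of these genes had values, out of 8106 named genes measured. Cdkn2b, the inhibitor p15, was the 1 member without values. The members fell into 32 genes of S phase, 40 of mitosis, 5 inhibitors of cyclin-dependent kinases with 4 measured, and 30 other members whose names match the rule although many act elsewhere, such as the kinases of transcription and of neurons.

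The samples were right and left ventricles with septum from 6 male mice, 3 per group, all labelled 1-renin; they were wild-type, from a 129Ola/C57BL/6J cross at backcross N5–6. Every mouse had a kidney removed, was treated over 5 weeks with DOCA (deoxycorticosterone acetate, a hormone that makes the kidney retain sodium) from an age of 7 to 8 weeks, and ate food with 0.5 mg Na per g, so both groups share surgery, hormone and diet, and no untreated mice enter the comparison. High-salt mice drank 1% NaCl and low-salt mice tap water, and hearts were taken at 12 to 13 weeks. Hearts of high-salt mice weighed 126 ± 5.69 mg and those of low-salt mice 108 ± 1.0 mg (SD, n = 3), and the cardiac weight index was 4.83 ± 0.104 against 4.04 ± 0.031 mg/g (SD, n = 3).

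Each of 4 arrays of printed cDNA clones compared a high-salt with a low-salt mouse, their labelled cDNAs told apart by the dyes Cy3 and Cy5. High-salt RNA carried Cy3 on arrays 1 and 2 and Cy5 on arrays 3 and 4. Arrays 2 and 4 are a dye swap of 1 pair and were averaged first, which leaves 3 pairs of mice: array 1, arrays 2 and 4, and array 3. Each value is a log2 ratio, read as high over low salt because the array titles word it so; 0 means equal signal. That direction is likely but not settled, since over the 8106 genes arrays that shared a dye orientation had Pearson correlations of 0.57 for arrays 1 and 2 and of 0.47 for arrays 3 and 4, while arrays of opposite orientation correlated at between -0.33 and -0.073. The groups are therefore also given with arrays 1 and 2 turned, a reading in which 17 of the 39 members named by rule change sign, each with its turned mean. The ratios carry no level of a gene, so the ventricle label could not be set against the level of its markers, and in whole tissue more cells of a kind and more RNA per cell cannot be told apart.

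A dividing cell copies its DNA in S phase and separates the copies in mitosis. The origin recognition complex marks where replication starts, Cdc6 loads the Mcm helicase there, polymerases with the Pcna clamp copy the strands, and ribonucleotide reductase and thymidine kinase supply nucleotides. Cdk1 with cyclin B then drives mitosis, condensin compacts the chromosomes, aurora and polo-like kinases and centromere proteins attach them to the spindle, and the anaphase-promoting complex releases them under the control of the Bub checkpoint. Inhibitors such as p21 (Cdkn1a) and p27 (Cdkn1b) hold the kinases back. Cardiomyocytes of the adult mouse rarely divide, and fibroblasts, endothelial cells and leukocytes of the heart can.

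Promoters of these genes are known for a few short motifs: E2F sites at S phase genes, and the cell cycle homology region (CHR) with CCAAT boxes at mitotic genes. Promoter sequences came from RefSeq (GRCm38.p6) and matched 93 members; the 250 bases before the start were searched on both strands. The promoters of Cdk1, Ccnb2, Orc3 and Mcm6 show these motifs, and each is written 5′ to 3′ along the gene's strand, with the matched letters in capitals. Capitals mark TTTGAA (CHR) and CCAAT, or its complement ATTGG, in Cdk1 and Ccnb2, TTTCCCGC (E2F) in Orc3, and TTTGGCGC (E2F) and ATTGG in Mcm6.
Cdk1, chr10:69352913-69353162, minus strand: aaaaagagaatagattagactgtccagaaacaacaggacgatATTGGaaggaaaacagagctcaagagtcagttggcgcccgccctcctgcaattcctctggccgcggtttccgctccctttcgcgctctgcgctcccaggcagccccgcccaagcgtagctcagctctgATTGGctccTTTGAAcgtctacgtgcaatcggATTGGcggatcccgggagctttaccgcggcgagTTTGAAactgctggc
Ccnb2, chr9:70421555-70421804, minus strand: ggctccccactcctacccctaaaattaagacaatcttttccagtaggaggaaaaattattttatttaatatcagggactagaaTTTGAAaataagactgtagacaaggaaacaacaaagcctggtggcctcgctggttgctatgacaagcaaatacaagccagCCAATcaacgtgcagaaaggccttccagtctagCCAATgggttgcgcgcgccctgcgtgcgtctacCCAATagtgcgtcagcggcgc
Orc3, chr4:34614943-34615192, minus strand: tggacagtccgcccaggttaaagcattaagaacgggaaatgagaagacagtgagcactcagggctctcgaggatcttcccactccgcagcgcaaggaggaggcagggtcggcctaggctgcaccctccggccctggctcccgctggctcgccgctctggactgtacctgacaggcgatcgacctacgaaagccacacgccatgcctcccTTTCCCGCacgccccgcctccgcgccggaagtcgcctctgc
Mcm6, chr1:128359706-128359955, minus strand: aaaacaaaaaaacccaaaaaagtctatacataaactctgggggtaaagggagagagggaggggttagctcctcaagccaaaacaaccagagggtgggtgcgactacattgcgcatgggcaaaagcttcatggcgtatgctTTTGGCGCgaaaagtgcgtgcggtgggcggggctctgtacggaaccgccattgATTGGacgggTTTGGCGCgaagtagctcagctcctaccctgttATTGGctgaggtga

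An E2F match, TTTCCCGC or TTTGGCGC, lay in 7 of 27 S phase promoters (25.9%: Cdc6, Cdk2, Mcm5, Mcm6, Mcm7, Orc3 and Pole4) and in 2 of 36 mitosis promoters (5.56%: Cdc25a and Cenpb), against 1.51% of 27025 RefSeq genes. CCAAT lay in 17 of 27 S phase promoters (63.0%) and in 21 of 36 mitosis promoters (58.3%), against 37.5% of all genes. TTTGAA lay in 6 of 36 mitosis promoters (16.7%: Bub3, Ccnb2, Cdc20, Cdk1, Cenpn and Smc2) and in 2 of 27 S phase promoters (7.41%: Mcm2 and Pold2), against 18.3% of all genes. No motif contains another. Among the 15 S phase and mitosis members with a promoter that stood above 0 on all 4 arrays, 1 held the E2F match (6.67%: Orc3), 3 held TTTGAA (20%) and 10 held CCAAT (66.7%). These matches describe letters in the window and no binding.

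As deposited, 71 of 106 members (67.0%) had a mean above 0, where 49.8% of all 8106 genes did, and 35 stood below. The median of the members was 0.048, with 0.036, 0.052 and 0.037 in pairs 1 to 3, and the median of all genes was -0.00026. Most of these differences were small: 60 members lay within 0.1 of 0, 11 above 0.3 and 1 below -0.3. No member passed limma's test at an adjusted p under 0.05, and no gene of the 8106 did (0%). The smallest adjusted p was 0.64, which Cdk1 shared.

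At an unadjusted p under 0.05, limma gave 9 members higher (8.49%: Ccna2, Ccnb2, Cdk1, Cdk19, Orc6, Rrm2, Smc2, Tacc3 and Tk1), where 2.81% of all genes were. It gave 1 member lower (0.943%: Cenpi), where 2.63% of all genes were. In either direction this made 10 members (9.43%), against 5.44% of all genes, and without pair 2 it made 3 members where 145 of all genes, in place of 441, were counted. On all 4 arrays, 20 members stood above 0 (18.9%, against 7.01% of all genes) and 6 stood below (5.66%, against 7.75%). With arrays 1 and 2 turned, 49 members had a mean above 0 (46.2%, against 46.7% of all genes), the median was -0.012 (all genes -0.011), and no gene passed the adjusted threshold (smallest adjusted p 0.081). In that reading 4 members were higher at an unadjusted p under 0.05 (3.77%, against 6.97%), 15 were lower (14.2%, against 13.8%), 9 stood above 0 on all 4 arrays (8.49%, against 12.7%) and 15 below (14.2%, against 18.7%). The share of members above 0 was thus larger than that of all genes in the deposited reading and not in the turned one.

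**Figure D1:**
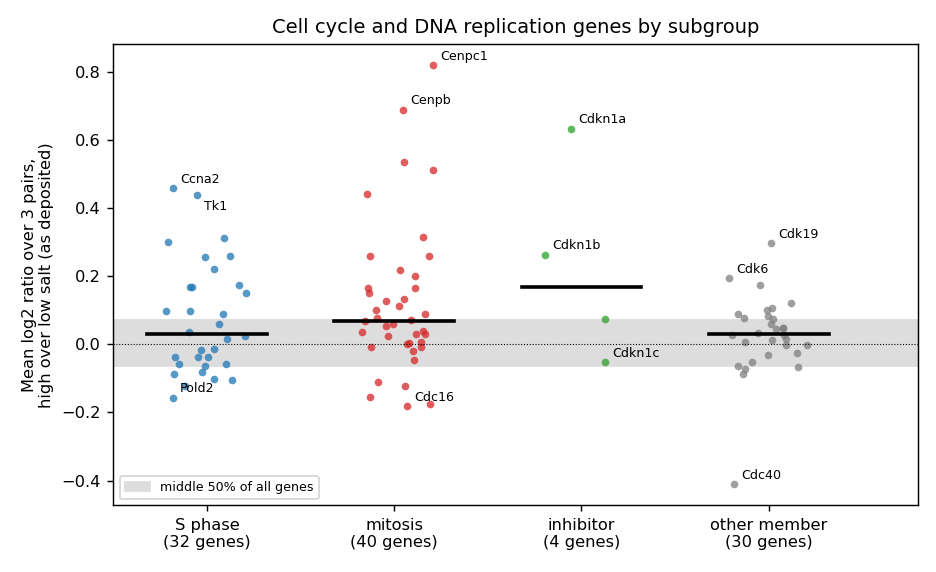
Mean log2 ratio of high over low salt over 3 pairs, as deposited (vertical axis), for each of the 106 measured members, grouped as S phase, mitosis, inhibitor and other member; each point is a gene, each black line the median of its group and the grey band the middle 50% of all genes. The medians are 0.031, 0.070, 0.17 and 0.031; the highest points, Cenpc1 and Cenpb in mitosis and Cdkn1a among the inhibitors, are genes whose arrays disagree.

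Genes of mitosis stood mostly above 0, by small amounts. Of 40, 30 had a mean above 0 (75%, against 49.8% of all genes). On all 4 arrays 12 stood above 0 (30.0%, against 7.01%) and 2 below (5.00%, against 7.75%). With arrays 1 and 2 turned 22 had a mean above 0 (55%, against 46.7%). Their median was 0.070, with 0.051, 0.086 and 0.085 in the pairs; turned, it was 0.039, with -0.051, -0.036 and 0.085. Without Cenpb and Cenpc1, left out after their values had been seen, the median was 0.065.

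Cdk1, the main kinase of mitotic entry, had log2 ratios of 0.39, 0.94, 0.62 and 0.27 on arrays 1 to 4. All arrays lay above 0, and the mean was 0.54 ± 0.13 (SD, n = 3 pairs), a fold of 1.45. Its limma adjusted p was 0.64, and with arrays 1 and 2 turned the mean was -0.035. Ccnb2, a cyclin B partner of Cdk1, had 0.11, 0.53, 0.54 and 0.080, and a mean of 0.32 ± 0.21. Its values were high on arrays 2 and 3 and near 0 on the others, so arrays 2 and 4, the same mice, differed. Cdc25b, a phosphatase that activates Cdk1, had 0.059, 0.34, 0.099 and 0.65, with a mean of 0.22 ± 0.24. Neither of its 2 clones stood above 0 on all arrays: 1 read -0.0079 on array 1 and the other -0.095 on array 3. The 3 Cdc25 phosphatases all had a mean above 0, between 0.054 and 0.22, and 2 of 3 did when turned.

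Tacc3, a protein that stabilises spindle microtubules, had 0.33, 0.74, 0.53 and 0.64. All arrays lay well above 0 with either dye; the mean was 0.51 ± 0.18 (adjusted p 0.78), and 0.051 with arrays 1 and 2 turned. Aurkb, the aurora kinase that corrects faulty spindle attachment, had 0.048, 0.56, 0.90 and 0.19. Its mean of 0.44 ± 0.43 had an SD almost as large as itself, and array 1 was close to 0. Plk1, the polo-like kinase of mitosis, had 0.17, 0.39, 0.045 and 0.099, with a mean of 0.15 ± 0.10 that was -0.089 in the turned reading. Its 2 clones had means of -0.016 and 0.32, and only the second stood above 0 on all arrays.

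Smc2 and Smc4 are the paired arms of condensin, and both stood above 0 on every array. Smc2 had 0.13, 0.30, 0.34 and 0.33, with a mean of 0.26 ± 0.12, and Smc4 had 0.068, 0.30, 0.41 and 0.30, with a mean of 0.26 ± 0.17. The lowest value of each was on array 1, and their turned means were 0.076 and 0.11. The 3 cohesin genes, which hold sister chromatids together, showed no such shared side: 1 of 3 stood above 0, and their means ran from -0.12 to 0.17; turned, 2 of 3 did.

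Checkpoint and centromere genes gave smaller values. Bub1, a checkpoint kinase at the kinetochore, had 0.14, 0.089, 0.26 and 0.12, with a mean of 0.17 ± 0.081. Bub1b, the checkpoint protein BubR1, had 0.037, 0.28, 0.079 and 0.013, with a mean of 0.088 ± 0.056 and a turned mean of -0.031. Of the 17 genes grouped by a Cenp symbol, 14 had a mean above 0, and their median was 0.071. Turned, 9 did, and the median was 0.041. Cenph, of the inner kinetochore, had 0.32, 0.025, 0.23 and 0.073, with a mean of 0.20 ± 0.14. Cenpe, a kinetochore motor, had 0.080, 0.21, 0.023 and 0.049, with a mean of 0.076 ± 0.052. Both stood above 0 on all arrays and close to 0 on some, and their turned means were -0.023 and -0.045.

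Cenpi, another inner kinetochore gene, went the other way, with -0.17, -0.13, -0.15 and -0.30. Its mean was -0.18 ± 0.033, and it was the 1 member lower at an unadjusted p under 0.05 (limma adjusted p 0.87). Of the 5 genes of the anaphase-promoting complex, 2 had a mean above 0 as deposited (Cdc26 and Cdc27) and 2 when turned (Cdc20 and Cdc27). Its subunit Cdc23 had -0.022, -0.17, -0.22 and -0.26, with a mean of -0.15 ± 0.11. Cdc16 had 0.054, -0.20, -0.51 and 0.018, with a mean of -0.18 ± 0.29 that array 3 set. The 23 mitosis genes not named by the rule had means between -0.12 and 0.17, and 16 of them stood above 0.

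Cenpb and Cenpc1 had the highest means of all members, and neither was shared by the arrays. Cenpb, which binds a short box in centromeric DNA, had 2.79, 1.74, -1.35 and -0.49. Arrays 1 and 2 were far above 0 and arrays 3 and 4 below, so the mean of 0.69 ± 2.07 was smaller than its SD, and with arrays 1 and 2 turned it was -1.75. Cenpc1, an inner kinetochore protein, had -0.00080, 0.0039, 0.14 and 4.64. Its mean of 0.82 ± 1.30 came from array 4 alone, and array 2, the same mice, read close to 0.

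**Figure D2:**
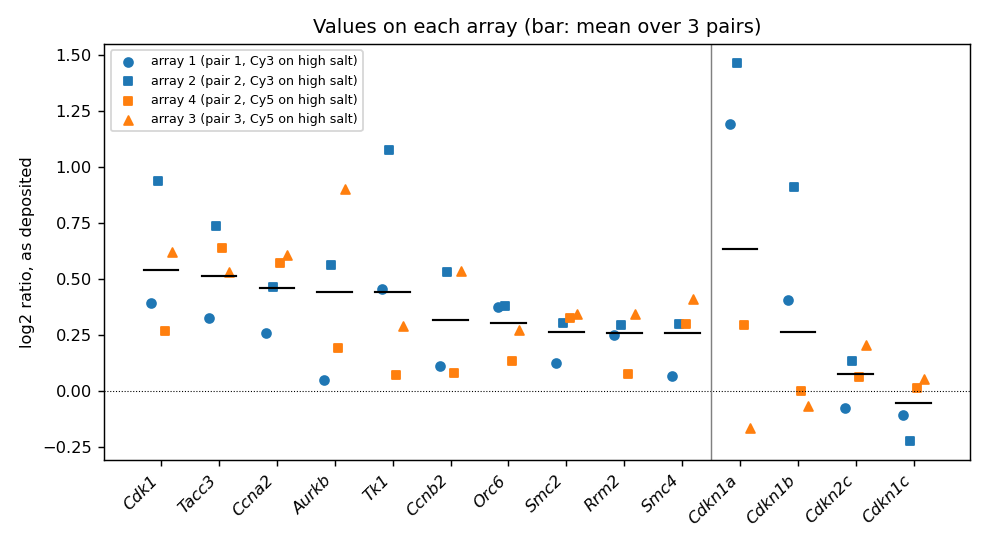
Log2 ratio of high over low salt, as deposited (vertical axis), on each of 4 arrays for 10 S phase and mitosis members and, right of the grey line, the 4 measured inhibitors; colour gives the dye on high-salt RNA, shape the pair, and the bar the mean over 3 pairs. The 10 members left of the line are all among those above 0 on every array, so their side follows from the choice. Those were 6 of 32 S phase and 12 of 40 mitosis genes. The inhibitors were not chosen by sign, and Cdkn1a and Cdkn1b are high on arrays 1 and 2 and near or below 0 on array 3.

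S phase genes were more divided. Of 32, 18 had a mean above 0 (56.2%, against 49.8% of all genes). On all 4 arrays 6 stood above 0 (18.8%, against 7.01%) and 3 below (9.38%, against 7.75%). With arrays 1 and 2 turned 14 had a mean above 0 (43.8%, against 46.7%). The median was 0.031, with -0.0057, 0.043 and 0.022 in the pairs, and -0.012 turned; as deposited it was 0.0091 without pair 2 and 0.053 without pair 3. The difference mitosis minus S phase, taken between medians within each pair, was 0.057, 0.042 and 0.063 as deposited; between the medians of the means over pairs it was 0.039, and 0.011 without pair 3. In the turned reading the pairs gave -0.057, -0.011 and 0.063, which do not share a sign, and the medians of the means over pairs differed by 0.051.

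Ccna2, the cyclin A of S phase and early mitosis, had 0.26, 0.46, 0.61 and 0.57, with a mean of 0.46 ± 0.18, a fold of 1.38 (limma adjusted p 0.85). All arrays were above 0, and the turned mean was 0.14. The cyclin E pair, which acts at the start of S phase, lay near 0, with means of -0.10 for Ccne2 and 0.037 for Ccne1, and of -0.029 and -0.15 when turned.

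Genes of nucleotide supply had a median of 0.18, and 3 of 4 had a mean above 0. Tk1, the thymidine kinase of S phase, had 0.45, 1.07, 0.29 and 0.070, with a mean of 0.44 ± 0.14 (adjusted p 0.78). Arrays 2 and 4, the same mice, gave the highest and the lowest value. Rrm2, the small subunit of ribonucleotide reductase that limits its activity, had 0.25, 0.29, 0.34 and 0.074, with a mean of 0.26 ± 0.080. The turned means were -0.22 and -0.0051. Both stood above 0 on all arrays, and in the turned reading all 4 genes of nucleotide supply had a mean below 0, with a median of -0.12.

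Of the 6 origin recognition genes, 3 had a mean above 0, and 4 when turned. Orc6 had 0.38, 0.38, 0.27 and 0.13, with a mean of 0.30 ± 0.064, and Orc3 had 0.074, 0.26, 0.47 and 0.19, with a mean of 0.26 ± 0.20; their turned means were -0.075 and 0.12. Orc1, the subunit whose level cycles, had -0.010, -0.049, -0.074 and -0.0044 and thus lay just under 0 on every array. Its 3 clones had means of -0.10, -0.022 and 0.014, and only the lowest was below 0 on every array. Mcm2, a helicase subunit, had -0.0016, -0.084, -0.25 and -0.026, with a mean of -0.10 ± 0.13. Mcm6, another helicase subunit, shown for its promoter, had -0.019, 0.57, 0.11 and 0.26, with a mean of 0.17 ± 0.22. Of the 5 helicase genes 3 stood above 0 as deposited and none in the turned reading.

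The replicative polymerases did not share a side. As deposited, 3 of 7 were above 0 (Pold3, Pole2 and Pole3), and when turned 3 different ones were (Pold1, Pole and Pole4). The median of the 7 was -0.013, or -0.087 when turned. Pole2, a subunit of polymerase epsilon, had 0.23, 0.35, 0.016 and 0.17, with a mean of 0.17 ± 0.13. Pole, its catalytic subunit, had -0.26, -0.26, 0.10 and -0.15, with a mean of -0.12 ± 0.19; the turned means were -0.10 for Pole2 and 0.14 for Pole. Pold2, a subunit of polymerase delta, had 0.31, 0.42, -0.77 and -0.43, and its mean of -0.16 ± 0.55 hid arrays of opposite sign by dye. Rfc1, the large subunit of the clamp loader, had -0.059, -0.034, -0.054 and -0.22, with a mean of -0.080 ± 0.040. Its 3 clones had means of -0.31, -0.066 and 0.14, with SDs from 0.11 to 0.46. The shared sign and small SD thus appeared only after clones on both sides of 0 were averaged. The 21 S phase genes not named by the rule had means between -0.10 and 0.31, and 12 of them stood above 0.

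The inhibitors had a median of 0.17, with 3 of 4 above 0 (2 of 4 and a median of -0.11 when turned), but none held its sign on all 4 arrays. Cdkn1a (p21), a target of p53, had 1.19, 1.46, -0.17 and 0.29. It was high on arrays 1 and 2, where high-salt RNA carried Cy3, and at -0.17 and 0.29 on the others; the mean was 0.63 ± 0.71 (adjusted p 0.98) and -0.65 in the turned reading. Cdkn1b (p27), which keeps resting cells out of the cycle, had 0.40, 0.91, -0.068 and -0.0026, a mean of 0.26 ± 0.29 and a turned mean of -0.31. The same split lay in 1 of its 2 clones (0.83, 1.74, -0.30 and 0.12). The other clone had -0.027, 0.081, 0.17 and -0.12, with a turned mean of 0.030. Cdkn2c (p18), an inhibitor of Cdk4 and Cdk6, had -0.078, 0.13, 0.20 and 0.062, with a mean of 0.075 ± 0.14. Cdkn1c (p57) had -0.11, -0.22, 0.055 and 0.013, with a mean of -0.053 ± 0.093 and a turned mean of 0.094.

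Against the inhibitors, the joint median of S phase and mitosis was lower in 2 of 3 pairs: the difference S phase and mitosis minus inhibitor was -0.13, -0.21 and 0.070. The pairs did not share its sign, and with arrays 1 and 2 turned it was 0.13, 0.21 and 0.070. It rests on 4 inhibitors.

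The 30 other members had a median of 0.031, and 20 of them had a mean above 0 (66.7%, against 49.8% of all genes). Turned, the median was -0.067 and 11 had a mean above 0 (36.7%, against 46.7%). Cdk12, a kinase of transcription elongation, had 0.12, 0.28, 0.026 and 0.034, with a mean of 0.10 ± 0.067. Cdk17, a kinase of the Cdk16 family, had 0.080, 0.62, 0.056 and 0.15, with a mean of 0.17 ± 0.18; turned, the means were -0.072 and -0.087. These were the 2 of this group above 0 on all arrays, and 1, the phosphatase Cdc14a, was below on all, with -0.026, -0.13, -0.089 and -0.079. For Cdk12 and Cdc14a the shared sign is that of averaged clones. The 3 clones of Cdk12 had means of -0.070, 0.12 and 0.25, and none stood above 0 on all arrays. The 2 clones of Cdc14a had means of -0.16 and 0.019, and only the first was below 0 on all arrays. Cdk19, a Mediator kinase, had 0.41, -0.12, 0.42 and 0.24, with a mean of 0.30 ± 0.20 (adjusted p 0.91). Cdk6, the cyclin D kinase of G1, had 0.31, 0.37, -0.032 and 0.25, with a mean of 0.20 ± 0.20 and a turned mean of -0.13. Its relative Cdk4 lay near 0, at 0.016 ± 0.077. Cdk2ap2, which binds Cdk2, had -0.072, 0.24, -0.14 and -0.34, with a mean of -0.087 ± 0.048. Cdc40, a splicing factor, had the lowest mean of all members, -0.41 ± 0.85, from 0.27, -0.14, -1.37 and -0.13, so array 3 set it. The 23 not named by the rule, Cdk4 among them, had means between -0.067 and 0.12.

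**Figure D3:**
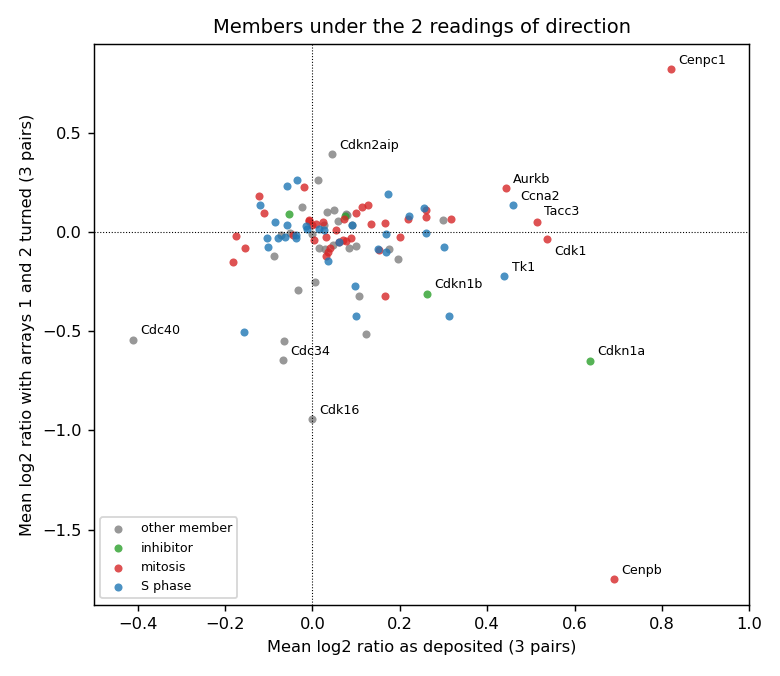
Mean log2 ratio of each of the 106 members over 3 pairs as deposited (horizontal axis) against the mean with arrays 1 and 2 turned (vertical axis), coloured by group; dotted lines mark 0. Aurkb, Ccna2 and Tacc3 stay above 0 in both readings, Cdk1 and Tk1 lie at -0.035 and -0.22 when turned, and Cdkn1a, Cenpb and Cdk16 lie far below 0 only on the vertical axis.

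The turned reading picked out other members. Cdk16, a PCTAIRE kinase chosen here after its values had been seen, had 0.79, 1.25, -1.07 and -0.70. Its arrays split fully by dye orientation: as deposited the mean was -0.00098 ± 0.96, and turned it was -0.94 ± 0.14 (limma adjusted p 0.081). Cdc34, a ubiquitin-conjugating enzyme chosen in the same way, had 0.71, 0.32, -0.65 and -0.83, with means of -0.067 ± 0.70 and, turned, -0.65 ± 0.067 (adjusted p 0.081). Higher in that reading at an unadjusted p under 0.05 were Cdk2ap1, Cdkn2aip, Orc4 and Pcna, the replication clamp. Pcna, also chosen after its values had been seen, had -0.26, -0.36, 0.21 and 0.11, with a turned mean of 0.23 ± 0.024 (adjusted p 0.12) and a deposited mean of -0.057 ± 0.24. No member was counted at an unadjusted p under 0.05 in both readings. Over the 106 members arrays 1 and 2 correlated at r = 0.68 and arrays 1 and 3 at r = -0.53, points that share print, mice or dye. Arrays 2 and 4, the same mice with dyes exchanged, correlated at r = -0.035.

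Of the 106 members, 51 were measured by 2 or more clones, which are printed cDNAs of the same gene. In 26 of the 51 all clones lay on 1 side of 0, and in 18 of these above it. The same share was not computed over all genes with 2 or more clones, so these counts have no background to be read against. The clones of Tacc3 had means between 0.48 and 0.57, those of Ccna2 between 0.34 and 0.69, those of Cdk1 between 0.24 and 0.83, and those of Smc2 between 0.066 and 0.45. Clones disagreed for Smc4 (-0.044 to 0.48) and most for Orc2, an origin recognition subunit (-0.035 to 0.56, with 1 of 3 clones above 0). A sign held on all 4 arrays refers to the average of a gene's clones. Every clone of Cdk1, Orc3 and Tacc3 also stood above 0 on all arrays. Bub1, Bub1b, Ccna2, Cenpe, Plk1, Rrm2, Smc2 and Smc4 each had at least 1 clone that did not, and no clone of Cdc25b or Cdk12 did. Counted by clone, 112 of 176 member clones stood above 0 (63.6%), against 50.6% of all 12480 named clones; turned, 89 did (50.6%, against 48.3%). As deposited, limma put 17 member clones higher by unadjusted p under 0.05 (9.66%, against 2.91% of all clones) and 1 lower (0.568%, against 2.47%), and none passed the adjusted threshold.

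**Figure D4:**
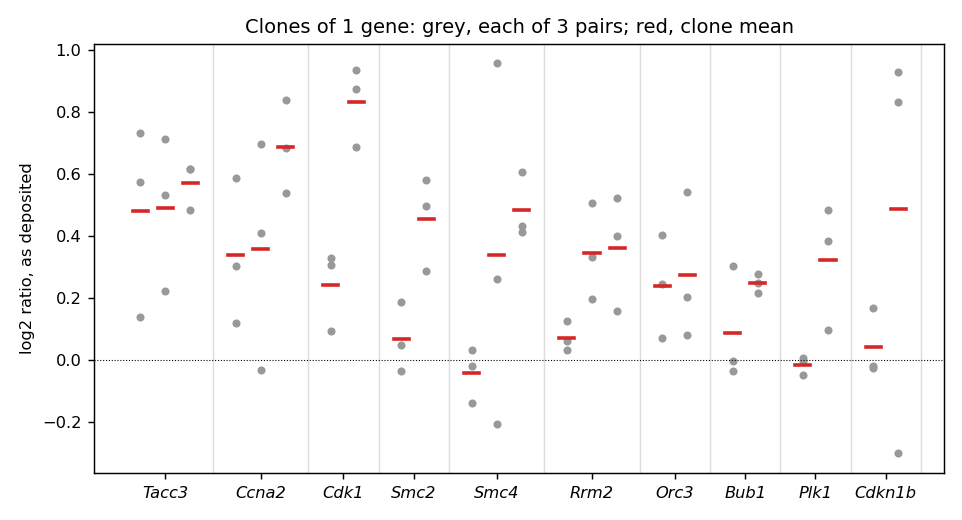
Log2 ratio, as deposited (vertical axis), of each clone of 10 named members with 2 or more clones. Grey points are the 3 pairs and red bars the clone means. The 10 drawn all have a gene mean above 0, and named members with several clones and a mean below 0 (Rfc1, Orc1, Cdc23, Cdc14a and Cdkn1c) are not drawn. The 3 clones of Tacc3 lie between 0.48 and 0.57, while the clones of Smc4 run from -0.044 to 0.48 and those of Cdkn1b from 0.040 to 0.49.

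A list of 69 other proliferation genes outside the rule was read beside the members. Of 58 measured, 44 had a mean above 0 (75.9%, against 49.8% of all genes), 9 were higher and 1 was lower by limma's unadjusted p under 0.05 (against 2.81% and 2.63% of all genes), and none passed the adjusted threshold. Turned, 34 had a mean above 0 (58.6%, against 46.7%), 2 were higher and 3 lower (against 6.97% and 13.8%). The median was 0.10, with 0.043, 0.097 and 0.21 in the pairs, and 0.051 with arrays 1 and 2 turned. Ube2c, the enzyme that works with the anaphase-promoting complex, had a mean of 0.67 ± 0.17, Birc5 (survivin, a partner of Aurkb) 0.53 ± 0.27 and the centrosome kinase Nek2 0.40 ± 0.20. All 3 changed sign when turned, to -0.024, -0.14 and -0.065. Of 25 cyclins and brakes of G1 outside the rule, 19 were measured. As deposited, 9 had a mean above 0 (47.4%, against 49.8% of all genes), and the median was -0.059. By limma's unadjusted p under 0.05, 1 was higher and 3 were lower (against 2.81% and 2.63% of all genes). Turned, 14 stood above 0 (73.7%, against 46.7%), 4 were higher and 3 lower (against 6.97% and 13.8%), and the median was 0.13. Ccnd1, the cyclin D that starts the cycle, had a mean of 0.39 ± 0.16, and 0.18 when turned. The antiproliferative gene Btg2 had -0.46 ± 0.19 and Gadd45b, a stress gene, -0.37 ± 0.15; turned, they had 0.13 and -0.070.

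Markers of other cell types of the heart were read beside the members. Of all 8106 genes, 49.8% had a mean above 0 as deposited and 46.7% when turned, the shares to set beside the counts below. As deposited, 12 of 14 measured fibroblast markers of 19 listed had a mean above 0, with medians of 0.34, 0.37 and 0.46 in pairs 1 to 3. Of 10 measured endothelial markers of 15, 7 stood above 0, with medians of 0.11, 0.18 and 0.18. Of 5 measured macrophage and leukocyte markers of 20, 3 stood above 0, with 0.13, 0.19 and -0.17, and of 6 smooth muscle and pericyte markers of 11, 5 did, with 0.22, 0.23 and -0.16. Cardiomyocyte markers were measured for 4 of 20 and had -0.22, 0.019 and 0.0027, with 2 above 0, and 3 erythroid genes of 12 had -0.070, -0.026 and -0.0049. Over the means, the medians changed from 0.40 as deposited to -0.046 turned for fibroblast markers (6 of 14 above 0), from 0.14 to 0.037 for endothelial (5 of 10), from 0.15 to -0.0063 for macrophage and leukocyte (2 of 5) and from 0.15 to -0.18 for smooth muscle and pericyte markers (1 of 6). For cardiomyocyte markers the median went from -0.049 to 0.10 (3 of 4), and for erythroid genes from -0.044 to -0.020 (1 of 3). The part of these cell types in the members' values was not tested.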

How the data were processed

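Ratios of 2 dyes were measured on 4 cDNA arrays holding 3 pairs of mice. The values the authors deposited, a log ratio for each feature on each array, were read as log2. How they made them (base, background correction, normalization, direction) is not given in the sources used here, and another base would rescale every value. Array medians were 0.01, -0.0008, -0.0062 and -0.0061, and no array was renormalized. Of 17664 features, 17207 had values on all arrays, and no value was imputed. Symbols came from GEO's platform annotation, which can be old: 12563 features had 1 symbol, 412 several and 4689 none. All 107 member symbols were found in RefSeq's gene table. Printed cDNAs can bind transcripts of close relatives.

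Clones of 1 symbol were averaged, as were arrays 2 and 4. limma 3.58.1 (R 4.3.3) tested whether the mean ratio of the 3 pairs differed from 0, with Benjamini-Hochberg adjustment over all 8106 genes. The test was also run on simulated data, whose outcome is not given here, so nothing is concluded from it. SDs are over pairs. The labels number the mice individually; arrays carry no depth, and their number limits the precision.

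Members and lists were chosen with earlier results of these data known. Named members held 1 sign on all 4 arrays, had 1 of the 2 lowest or 2 highest means of their group, or were inhibitors; of lists outside the rule, the 3 genes of smallest unadjusted p were named. Alternatives were turned arrays, a dye covariate, each pair left out, a single array for pair 2, centring and scaling, and the median of clones.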

Additional observations from a re-analysis of the deposited data

Results flagged for a closer look

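Among 44 results examined, 3 members had an array far from the other 3 by Dixon's test on the gap to the nearest array over the whole range. Rfc1, of the clamp loader, read -0.22 on array 4 (gap over range 0.864), and its arrays otherwise lay between -0.059 and -0.034. On array 4 its 3 clones read -0.56, -0.013 and -0.081. Cenpc1, of the inner kinetochore, read 4.64 on array 4 (0.969), against 0.0039 on array 2, which held the same mice. The kinase gene Cdk17 read 0.62 on array 2 (0.835), against 0.15 on array 4. Chance alone flags about 5% of such groups of 4, and arrays 2 and 4 are not independent.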

How the results depend on the processing

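No gene passed the adjusted threshold under any alternative run; the smallest adjusted p ran from 0.0754 (dye covariate) to 1.0 (without pair 2). At an unadjusted p under 0.05 the count over all genes was 441, against 1683 with arrays 1 and 2 turned, 1188 with a dye covariate and 145 to 851 with a pair left out; the members' count was 10, against 19, 22 and 3 to 14. The members' median of 0.048 became -0.012 turned, 0.045 to 0.063 with a pair left out, 0.069 with pair 2 from array 2 only and 0.033 by clone, an alternative chosen after seeing the data. Turned, the medians were -0.012 for S phase, 0.039 for mitosis and -0.11 for inhibitors; as deposited with pair 2 from array 2 only, the S phase median was 0.059. Mitosis minus S phase, 0.039, became 0.051 turned, 0.011 to 0.055 with a pair left out and 0.050 with the median of clones; S phase and mitosis minus inhibitor, -0.11, became 0.12 turned. Of 39 named members 17 changed sign when turned: Bub1b -0.031, Cdk1 -0.035, Cdk12 -0.072, Cdk17 -0.087, Cdk6 -0.13, Cdkn1a -0.65, Cdkn1b -0.31, Cdkn1c 0.094, Cenpb -1.75, Cenpe -0.045, Cenph -0.023, Orc6 -0.075, Plk1 -0.089, Pole 0.14, Pole2 -0.10, Rrm2 -0.0051 and Tk1 -0.22. With a pair left out, Cdc40 ran from -0.75 to 0.067 and Pold2 from -0.39 to 0.15, both above 0 without pair 3, and Cenpb ran from -0.36 (without pair 1) to 1.71; with pair 2 from array 2 only Cdk2ap2 became 0.0083; the cause was not tested.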
